A study of Mus musculus with 6 samples.

Results

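Cell cycle and DNA replication genes were followed as a group of 43 listed genes, chosen by name from replication licensing, the cyclins and their kinases, mitosis, the spindle checkpoint and the inhibitors of cyclin-dependent kinases (CDKs). All array probes whose platform symbol or a synonym of it named a listed gene were taken. This gave 54 probes for 42 of the 43 genes, out of 31769 gene probes for 17865 named genes, and Cdk1 was found under its older symbol Cdc2a. No probe was matched to Ccnb1, which was not analysed here. The samples were ventral midbrains dissected from Pitx3-/- mouse embryos at E14.5, the stage in days of embryonic development, as 3 mutant pools of 3 midbrains each. They were compared with 1 reference RNA made from 10 Pitx3+/+ ventral midbrains of the same day. Each pool was hybridised on 2 2-colour arrays with the dyes exchanged, so 6 arrays were read. The allele that removes Pitx3 is not described in the sources used here, and the dissected tissue mixes progenitors, neurons and non-neural cells.

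Cells license replication origins by loading the MCM helicase in G1, copy their DNA in S phase, and divide under CDK1 with cyclins A and B. Many of the genes for S phase are transcribed under E2F factors, and those for G2 and mitosis under the DREAM and MuvB complexes, which act through CHR elements, and under NF-Y, which binds CCAAT boxes. In the embryonic ventral midbrain these genes are expressed in the dividing progenitors of the ventricular zone, while young dopaminergic neurons, in which Pitx3 is expressed, have left the cycle under CDK inhibitors such as p57, the product of Cdkn1c.

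Promoters of 3 members are shown for these classes: Mcm7 for licensing, Ccnb2 for mitosis and Cdkn1a for the inhibitors. The sequences are from RefSeq (GRCm38.p6) and give the 250 bases before an annotated start, 5′ to 3′ on the gene's strand. The window of the upstream start of Mcm7 lies at chr5:138171884-138172133 (minus strand), that of Ccnb2 at chr9:70421555-70421804 (minus strand) and that of the upstream start of Cdkn1a at chr17:29090729-29090978 (plus strand). Capitals mark matches on either strand to an E2F motif (TTTGGCGC, TTTCCCGC, TTTCGCGC or TTTGCCGC), to CHR letters (TTTGAA or TTCGAA), to CCAAT, or to the p53 motif as 2 adjacent half-sites with at most 1 mismatch.
Mcm7: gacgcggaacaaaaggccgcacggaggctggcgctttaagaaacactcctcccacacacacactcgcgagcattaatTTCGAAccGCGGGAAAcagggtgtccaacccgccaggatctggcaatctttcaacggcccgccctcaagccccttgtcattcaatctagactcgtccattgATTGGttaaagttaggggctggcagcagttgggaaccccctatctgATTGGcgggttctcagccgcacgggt
Ccnb2: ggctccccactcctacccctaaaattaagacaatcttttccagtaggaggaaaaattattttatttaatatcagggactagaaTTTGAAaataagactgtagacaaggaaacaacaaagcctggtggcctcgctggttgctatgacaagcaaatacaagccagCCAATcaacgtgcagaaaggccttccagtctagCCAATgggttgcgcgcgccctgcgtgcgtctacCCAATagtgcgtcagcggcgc
Cdkn1a: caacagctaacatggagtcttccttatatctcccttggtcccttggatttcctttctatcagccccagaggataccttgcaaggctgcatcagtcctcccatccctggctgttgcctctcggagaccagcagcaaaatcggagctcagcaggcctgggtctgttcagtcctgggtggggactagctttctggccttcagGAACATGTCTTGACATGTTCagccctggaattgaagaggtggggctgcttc
In the Mcm7 window the CHR letters stand next to the E2F match, and 2 CCAAT boxes lie nearer the start. Ccnb2 has CHR letters beginning 167 bases before the start and 3 CCAAT boxes beginning 87, 54 and 21 bases before the start. Past the printed bases, Ccnb2 has further CHR letters beginning 4 bases after the start. Mcm7 has an E2F match 16 and a CCAAT box 23 bases after its start. The p53 match of Cdkn1a begins 51 bases before its upstream start. Promoter windows of 300 bases, which add the 50 bases after the start, were found for 35 of the 43 genes. E2F letters were in 6 of 7 licensing genes, in 0 of 4 DNA synthesis genes, in 1 of 15 genes of G2/M, mitosis and checkpoint, and in 2.6% of all 27025 genes with a window. CHR letters were in 2 of the 11 licensing and DNA synthesis genes, in 12 of the 15 later ones and in 21.7% of all genes. CCAAT was in 8 of the 11, in 13 of the 15 and in 41.1% of all genes. The p53 motif was in 1 of the 35 members, Cdkn1a, and in 0.107% of all genes. E2F letters were thus mostly in the licensing genes and CHR letters mostly in those of G2/M, mitosis and checkpoint, while CCAAT was frequent in both. These counts are descriptions of sequence and were not tested.

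All ratios are log2 mutant over reference, averaged over the dye-swapped arrays of a pool, and means are given ± SD over 3 pools. The Pitx3 probe had ratios of 0.036, 0.0092 and 0.034 in pools 1, 2 and 3 and was above background in neither channel on any array, so it does not check the genotype. Of 12 dopaminergic markers, all measured, Pitx3 and Lmx1b were never above background. Th stood at 0.021, -0.22 and -0.23 and the vesicular transporter gene Slc18a2 at -0.38, -0.38 and -0.32. Of the 12, 8 had an unadjusted p under 0.05, with 5 lower and 3 higher. The higher ones, named after their values were seen, were En2 (0.79, 0.90 and 0.68), En1 (0.82, 0.86 and 0.39) and Foxa2 (0.13, 0.34 and 0.069). The list's summed signal was 2185, 2563 and 1976 in the mutant pools, against 1789, 2041 and 1782 in the reference. Of these sums, En2 alone gave 587, 668 and 579 in the mutant pools, against 340, 359 and 362 in the reference. The list's median ratio was 0.0033, so its sum and median differ. The median spot signal per array was 70.6 to 77.5 in Cy5 and 46.2 to 50.4 in Cy3. The mutant channel had 46.1% to 51.7% of gene probes above background, and the reference channel 47.5% to 54.6%. The number of arrays and the single reference limit the precision of every value.

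Differences in cell cycle transcripts between mutant and wild-type ventral midbrain were small. The median ratio of the 42 measured members was 0.0044, with members between -0.12 and 0.10, and that of all genes was 0.0002. With p-values from limma adjusted over every gene probe, none of the 42 fell under 0.05, nor did any gene (0% of 17865, with 1051 at an unadjusted p under 0.05). At an unadjusted p under 0.05 there were 2 members, Ccna2 on the lower side and Cdkn1a on the higher side, where 5.88% of all genes reach that level. On the lower side alone it was reached by 3.02% of genes and on the higher side by 2.86%. The members' share, 4.76%, was thus near the background. Both were among the 24 members above background on all arrays, and 9.87% of the 9436 such genes reached that level (4.58% higher and 5.29% lower). In RNA from whole tissue, fewer cells of a type and less RNA per cell cannot be told apart. A probe counted as above background when its signal exceeded the local background by 2 SDs. This held on all 6 arrays for 24 members, and 7 members were above background on no array: Gmnn, Ccne2, Cdk2, Bub1, Bub1b, Cdc20 and Cdkn2c. No fold change is given for those 7.

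The intervals show which mean ratios fit the spread between pools, not which changes would have passed adjustment. En2, which is not a member, had a mean of 0.79 and an adjusted p of 0.208 (limma). For the 24 members above background, limma's 95% intervals of the ratio lay between -0.20 and 0.20, which is 0.872 to 1.15 times the reference level. An offset of 50 added to every spot shrinks these ratios towards 0. Without it, the intervals of the same genes lay between -0.47 and 0.41, or 0.72 to 1.33 times the reference. They describe spread between mutant pools only, since the reference was 1 RNA.

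**Figure D1:**
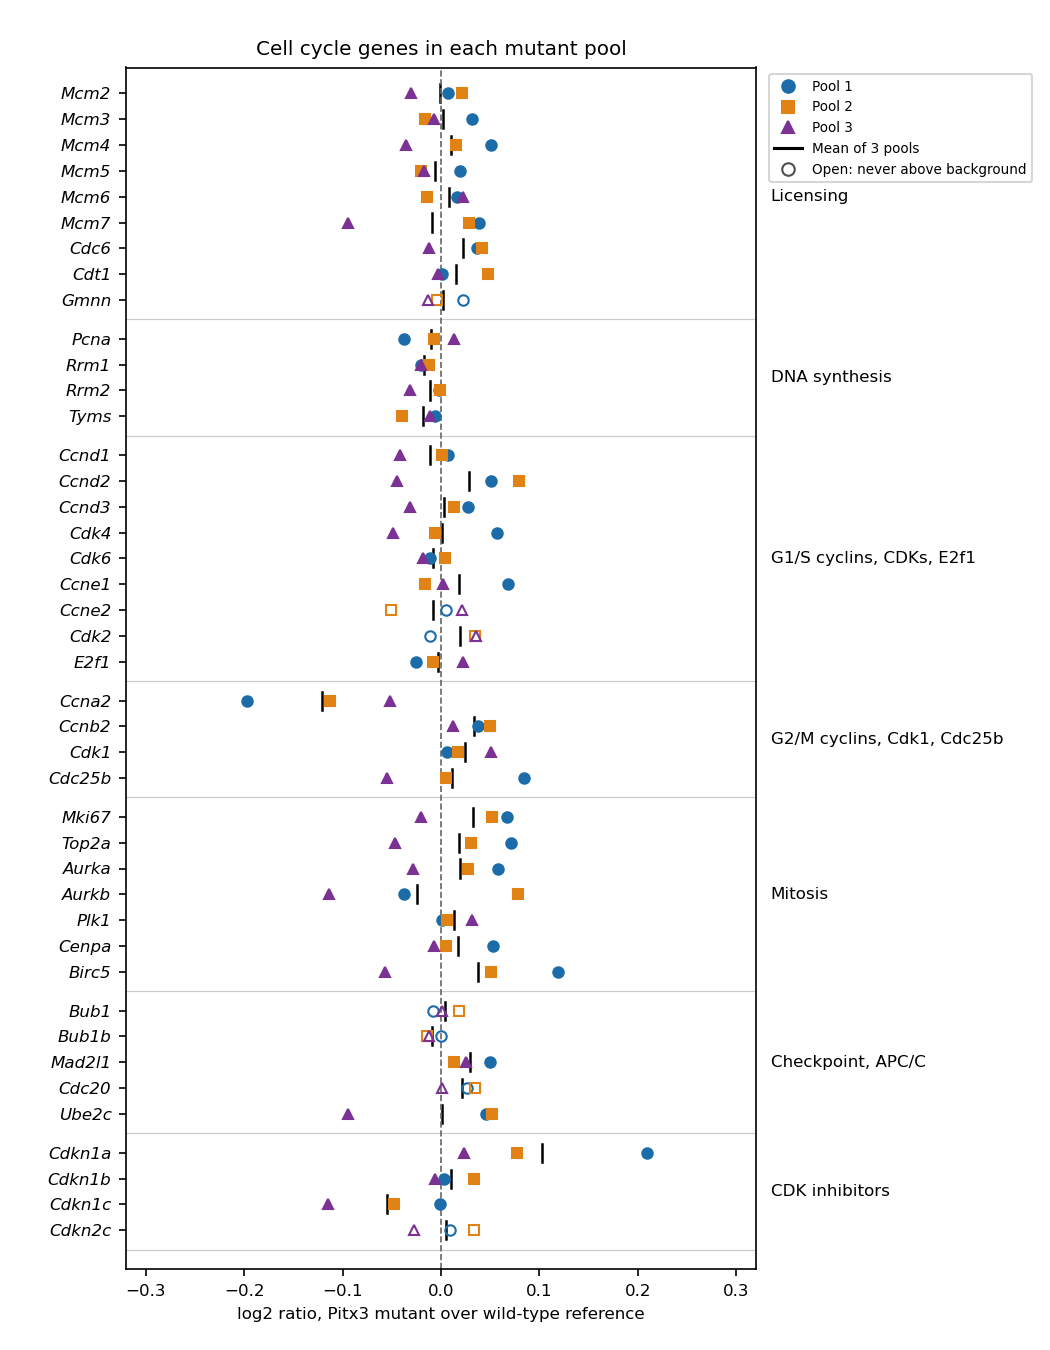
Log2 ratio of mutant over reference (x axis) for the 42 measured cell cycle genes (rows, grouped by role) in each of 3 mutant pools (points) with their mean (black bar). Open points mark the 7 genes above background on no array. Ccna2 lies left of 0 and Cdkn1a right of 0 in all 3 pools, and most other genes have points on both sides or close to 0.

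Ccna2 encodes cyclin A2, the partner of CDK2 in S phase and of CDK1 in G2. Its normalized signal was 98.3, 94.6 and 65.9 in mutant pools 1, 2 and 3, against 113, 102 and 68.3 in the reference on the same arrays. The mutant lay below the reference in each pool, but the signals of the 2 groups overlap between pools. The ratios were -0.20, -0.11 and -0.052, with a mean of -0.12 ± 0.07 (0.92 times the reference). All 6 arrays were below 0, as for 1.54% of genes, and each dye orientation averaged -0.12. No member was above 0 on all 6 arrays, as 1.44% of genes were. Its unadjusted p was 0.0106 and its adjusted p 0.908 (limma). Without pool 3 the mean was -0.16 and the adjusted p 0.0196, with 1543 probes past the threshold in that fit. Ccna2 was the only member to pass there. Its adjusted p was 1 without pool 1 and without pool 2. The unadjusted p was 0.0579 without pool 2, 0.0626 from the Cy3-labelled mutant arrays alone and 0.239 with median centring, so the unadjusted call was lost in these 3 of 13 alternatives.

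The Ccna2 spot itself varied between arrays. The reference RNA was the same on all 6, yet its Ccna2 signal was 182 and 155 on 1 array each of pools 1 and 2 (mutant labelled with Cy3 and with Cy5), and 67.4 to 70.0 on the other 4. This range of 1.43 on the log2 scale was reached or exceeded by 2.87% of genes above background, whose median range was 0.29. The arrays with the bright spot had ratios of -0.28 and -0.18, and the others -0.12, -0.046, -0.028 and -0.075. With an offset of 0 the 6 ratios were -0.37, -0.31, -0.43, -0.22, -0.15 and -0.34 in the same order, so all were below 0 there too. Whether the spot's brightness sets the size of the ratio was not tested.

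**Figure D2:**
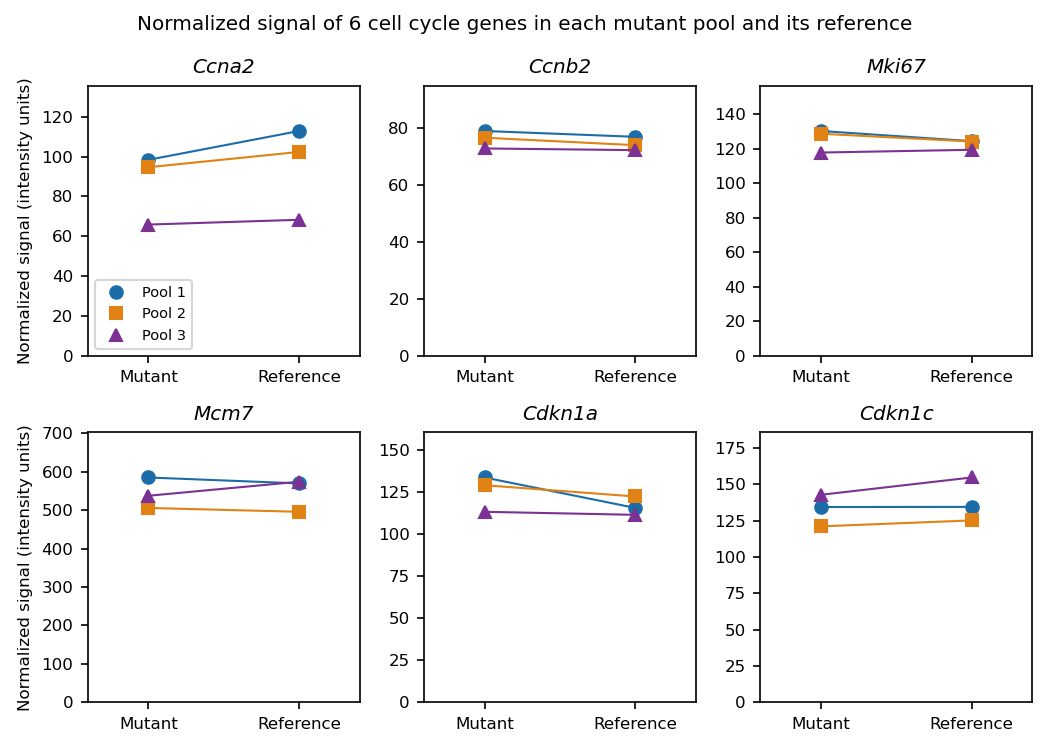
Normalized signal (y axis, intensity units from 0) of 6 cell cycle genes in the mutant (left) and in the reference (right), with a line joining each pool to the reference on its own arrays. The Ccna2 signal of pool 3 is 65.9 in the mutant and 68.3 in the reference, below those of the other pools on both sides.

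Cdkn1a encodes p21, a CDK inhibitor and p53 target. It had signals of 134, 129 and 113 in mutant pools 1, 2 and 3, against 116, 122 and 112 in the reference. The ratios were 0.21, 0.077 and 0.023, with a mean of 0.10 ± 0.10 (1.07-fold), so the size differed about as much between pools as it stood from 0. Of the pool 3 arrays, the one whose mutant carried Cy3 was at -0.013 and the other 5 arrays were above 0. The unadjusted p was 0.0426 and the adjusted p 0.908 (limma). The mean was 0.050 without pool 1. Median centring, used instead of loess, gave 0.032. The unadjusted p stayed under 0.05 in 6 of 13 alternatives, and was 0.0501 with print-tip loess, 0.0824 with an offset of 0 and 0.495 with median centring.

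No other inhibitor gene reached an unadjusted p under 0.05. Cdkn1c, which encodes p57 and acts in cell cycle exit of neurons, had signals of 134, 121 and 143 in the mutant pools, against 134, 125 and 155 in the reference. Its ratios were -0.0012, -0.048 and -0.11, with a mean of -0.055 ± 0.057 and an unadjusted p of 0.076 (limma). The mutant in Cy3 gave -0.11 and the mutant in Cy5 gave 0.0003, so the 2 dye orientations differed. Whether this was a dye effect, which cancels in the mean of a pool, was not tested. Its reference signal was 230 on the pool 3 array whose mutant carried Cy3 and 104 to 138 on the other 5, and that bright array had the lowest ratio, -0.19. Cdkn1c, Ccna2 and Cdk1 were the 3 of 24 members above background whose reference signal ranged over at least 1 log2 unit. Of all genes above background, 5.27% had such a range. Cdkn1b, which encodes p27, exceeded background in 1 mutant signal and no reference signal, and its bound was under 1-fold. Its ratios were 0.0032, 0.033 and -0.0064.

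Genes that license replication origins had a median of 0.0025 over 9 measured members. Mean ratios of the MCM2-7 helicase subunits lay between -0.0091 and 0.0099. With median centring Mcm4, Mcm5 and Mcm7 stood at -0.082, -0.098 and -0.084, and Mcm4 and Mcm7 had an unadjusted p under 0.05, as 19% of genes did there. Mcm3, Mcm5 and Mcm6 were near background on most arrays, where the offset holds ratios close to 0. Mcm7 had signals of 585, 506 and 537 in the mutant pools, against 569, 496 and 574 in the reference. Its ratios of 0.039, 0.029 and -0.095 average -0.0091 ± 0.074, and pool 3 stood on the other side of 0 from pools 1 and 2. Mcm2 had 0.0074, 0.021 and -0.031, and Mcm4 had 0.050, 0.015 and -0.036. These 3 were the licensing genes above background on all arrays, and in each of them pool 3 was the lowest pool. Mcm3 had 0.032, -0.017 and -0.0074, and Mcm5 had 0.020, -0.021 and -0.017. Mcm6 had 0.016, -0.014 and 0.023, and exceeded background on no mutant and 1 reference signal, with a bound under 1-fold. The loading factors Cdc6 and Cdt1 had 0.037, 0.042 and -0.013 and 0.0012, 0.048 and -0.0028. None of the 9 had the same sign in all 3 pools, where 13% of all genes were above 0 in all pools and 12.5% below.

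Genes of nucleotide supply and DNA synthesis had a median of -0.015 over 4 members. Rrm1 and Rrm2, the subunits of ribonucleotide reductase, had -0.021, -0.012 and -0.021 and -0.0025, -0.0008 and -0.031. Tyms, thymidylate synthase, had -0.0057, -0.039 and -0.011. These 3 were below 0 in all 3 pools, with unadjusted p between 0.175 and 0.409 (limma), and Rrm1 was at 0.014 in the authors' deposited ratios. Rrm1 and Rrm2 each exceeded background in 1 mutant and 1 reference signal. All 3 genes changed sign with the dye. With the mutant in Cy5 and in Cy3, Rrm1 had 0.0257 and -0.061, Rrm2 had -0.0395 and 0.0166, and Tyms had -0.065 and 0.0276. Pcna, the sliding clamp of DNA polymerase, was the only one of the 4 above background on all arrays. It stood at -0.038, -0.0076 and 0.014.

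The G1/S regulators, 9 measured, had a median of 0.0007. Cyclin D genes, which answer growth signals in progenitors, differed by pool: Ccnd2 had 0.051, 0.079 and -0.044, Ccnd3 had 0.027, 0.014 and -0.032, and Ccnd1 had 0.0070, 0.0008 and -0.042. All 3 were above 0 in pools 1 and 2 and below 0 in pool 3. Their kinase genes Cdk4 and Cdk6 had 0.057, -0.0066 and -0.049 and -0.011, 0.0044 and -0.019. Ccne1, cyclin E1, had 0.069, -0.016 and 0.0023. E2f1, the S phase transcription factor, had -0.025, -0.0080 and 0.023 and exceeded background in 1 mutant and 2 reference signals. None reached an unadjusted p under 0.05.

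The other regulators of entry into mitosis had means above 0, where Ccna2 was below. Ccnb2, cyclin B2, had signals of 78.8, 76.5 and 72.7 in the mutant pools, against 76.8, 73.8 and 72.1 in the reference. The mutant was the higher in each pool, by 0.038, 0.050 and 0.012, with a mean of 0.033 ± 0.020 and an unadjusted p of 0.0559 (limma). However, the mean was 0.0645 with the mutant in Cy5, 0.002 with the mutant in Cy3 and -0.019 with median centring. The promoter shown above for Ccnb2 carries 3 CCAAT boxes. Cdk1, the mitotic kinase, had 0.0066, 0.017 and 0.051. Its reference signal was 162 on the pool 3 array whose mutant carried Cy5 and 68.4 to 71.8 on the other 5, and the ratio of that bright array was 0.11. Cdc25b, the phosphatase that activates CDK1, had 0.084, 0.0054 and -0.055.

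Genes of mitosis itself had a median of 0.018 over 7 members. Of the 7 means 6 were above 0, as were 9000 of all 17865, but only 1 of the 7 was when median centring replaced loess. Under that setting all genes above background also had medians below 0, at -0.048, -0.051 and -0.027 in pools 1, 2 and 3. Mki67, which encodes the proliferation antigen Ki-67, had signals of 130, 129 and 118 in the mutant pools, against 125, 124 and 120 in the reference. Its ratios were 0.067, 0.052 and -0.020. Top2a, the topoisomerase that untangles chromosomes, had 0.072, 0.031 and -0.047, and the spindle kinase gene Aurka had 0.058, 0.028 and -0.029. Birc5, which encodes survivin, had 0.12, 0.051 and -0.057. These 4 genes had the same order of pools, with pool 1 the highest and pool 3 below 0. Aurkb, the kinase of the chromosomal passenger complex, had -0.038, 0.078 and -0.11. Cenpa, the centromeric histone, had 0.052, 0.0054 and -0.0067. Plk1, a mitotic kinase, had 0.0009, 0.0065 and 0.032 and exceeded background in 1 mutant and 2 reference signals.

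Of the spindle checkpoint and anaphase-promoting complex genes, Mad2l1 and Ube2c were above background on all arrays and Bub1, Bub1b and Cdc20 on none. Mad2l1, a checkpoint protein gene, had 0.050, 0.014 and 0.025, with a mean of 0.030 ± 0.018 and an unadjusted p of 0.0743 (limma). However, the mean was 0.0696 with the mutant in Cy5, -0.0105 with the mutant in Cy3 and -0.038 with median centring. Ube2c, the ubiquitin-conjugating enzyme of the complex, had signals of 533, 541 and 590 in the mutant pools, against 516, 522 and 630 in the reference. Its ratios were 0.045, 0.052 and -0.094, so pool 3 again lay apart.

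Other probes existed for 8 of the members. The 12 further probes had mean ratios between -0.013 and 0.020. For Ccnd2, the dimmer probe stood at -0.012, against 0.029 for the brighter one, and both had pool 3 as the lowest pool. The dimmer Cdk6 probe above background on all arrays stood at 0.016, against -0.0083 for the brightest. No second probe existed for Ccna2 or Cdkn1a.

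Across the members, pool 3 stood apart from pools 1 and 2. Of the 24 members above background, 19 were above 0 in pool 1, 19 in pool 2 and 6 in pool 3, with medians of 0.048, 0.016 and -0.034. Among all 9436 genes above background, 49%, 53% and 45.4% were above 0 in the same pools, with medians of -0.0012, 0.0029 and -0.0045. Pool 3 was the lowest of the 3 pools for 19 of the 24 members and for 43.3% of those genes. It was the lowest for 18 to 20 of the 24 under each of 5 other scalings. Under these, pool 3 was the lowest for 28% (median centring) to 46.2% (offset of 0) of all genes above background. Median centring, however, put 9, 4 and 3 of 24 above 0 in pools 1, 2 and 3. The members' medians were then -0.019, -0.034 and -0.083. Those of all genes above background were also below 0, at -0.048, -0.051 and -0.027. The difference between pools cannot be tested, because each pool is 1 RNA.

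**Figure D3:**
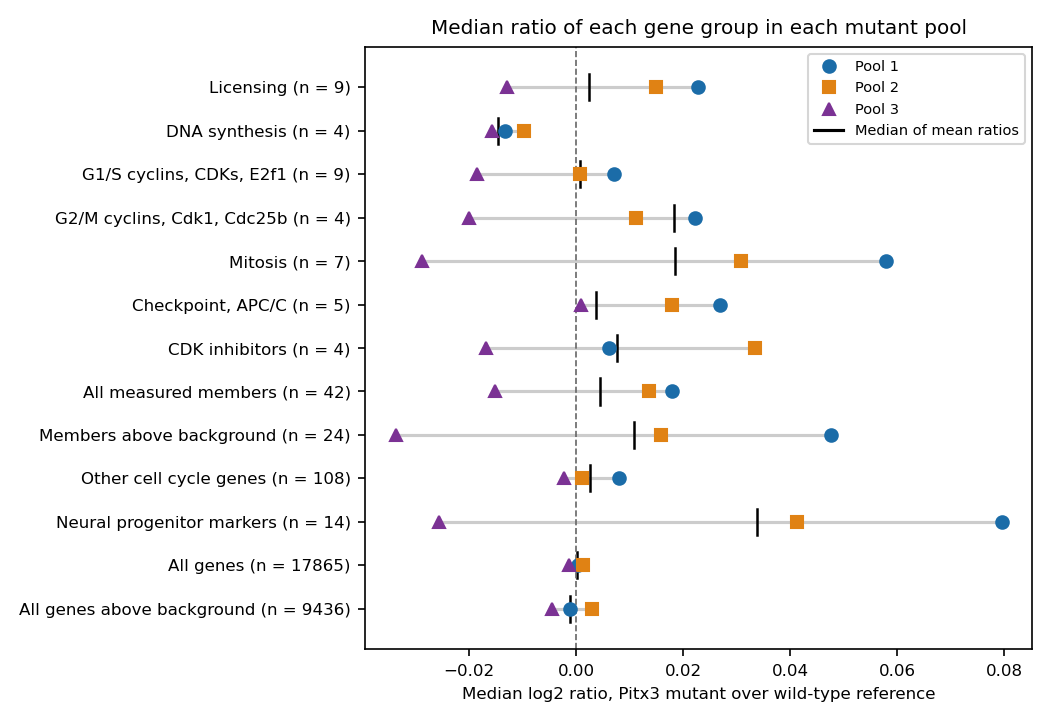
Median log2 ratio of mutant over reference (x axis) for each role, for other gene groups and for all genes (rows), in each pool (points), with the median of the mean ratios (black bar). In pool 3 the 24 members above background lie at -0.034 and in pool 1 at 0.048, while all genes stay near 0. When median centring replaces loess, these 2 medians are -0.083 and -0.019, both below 0. All genes above background then stand at -0.027 in pool 3 and at -0.048 in pool 1.

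Progenitor markers showed a like order of pools. Of 15 listed markers 14 were measured, with medians of 0.080, 0.041 and -0.026, and Sox3, Pax6 and Hes5 were never above background. Their summed signal was 5980, 5300 and 4837 in the mutant pools, against 5669, 5389 and 5070 in the reference. Most of each sum was Fabp7, at 4222, 3678 and 3296 in the mutant pools, against 4015, 3841 and 3501 in the reference. Nes, the intermediate filament gene of neural progenitors, had 0.33, 0.26 and -0.093, and Vim had 0.14, 0.11 and -0.065. Sox2, a progenitor transcription factor gene, had -0.10, -0.055 and -0.026 and did not follow them. The neuronal genes Tubb3 and Stmn2 had 0.098, 0.037 and -0.088 and 0.020, 0.088 and 0.077. Of 14 measured neuronal markers, 6 (42.9%) had an unadjusted p under 0.05, all on the higher side, where 5.88% of all genes reached it, and none passed after adjustment. Summed signals of these 14 were 11250, 13330 and 11690 in the mutant pools, against 10660, 12470 and 11920 in the reference. The part of either cell type in the pool difference was not tested.

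Markers of non-neural cells were summed in the same way. Every signal in such sums includes the offset of 50, which draws mutant and reference sums together, most of all for dim genes. The 9 measured erythroid genes summed to 6513, 6604 and 6539 in the mutant pools, against 5805, 6609 and 5865 in the reference. The 11 microglial and macrophage genes summed to 871 to 889 in the mutant, against 859 to 881 in the reference. The 12 meningeal and mesenchymal genes gave 928 to 967, against 917 to 965, and the 9 endothelial genes 873 to 984, against 853 to 967. Most of the erythroid sum was Hba-a1, an alpha globin gene with a near-identical copy, at 5039, 5022 and 5230 in the mutant pools, against 4373, 5108 and 4567 in the reference. The medians of the erythroid list were 0.0045, -0.025 and -0.0075 in pools 1, 2 and 3, so the list's sum and median differ. Pool 3 had the lowest median in the endothelial list (0.018, 0.026 and -0.015) and in the meningeal and mesenchymal list (0.022, 0.019 and -0.0014). The same held for the neuronal list (0.042, 0.061 and 0.014). In the dopaminergic, erythroid and microglial lists pool 2 had the lowest median. The part of non-neural cells in the members' values was not tested.

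A further list of 112 cell cycle genes, 108 of them measured, stood beside the members. Its median was 0.0026, and 8 of the 108 reached an unadjusted p under 0.05, with 4 higher and 4 lower. That is 7.41%, where 5.88% of all genes did, and none passed after adjustment over all probes. By part, 2 of 37 origin and replication fork genes reached it, 1 of 26 G1/S control genes and 5 of 45 genes of the G2/M machinery. The lowest p was that of Mdm2, the ubiquitin ligase gene that restrains p53 and is itself a p53 target. It had -0.11, -0.070 and -0.070, with a mean of -0.082 ± 0.022 and an unadjusted p of 0.00219 (limma), below 0 where Cdkn1a was above.

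Pttg1, which encodes securin, had -0.14, -0.068 and -0.037, in the pool order of Ccna2, while 2 dimmer probes of it stood at -0.0003 and 0.038. Its ratio was -0.0073 with the mutant in Cy5 and -0.15 with the mutant in Cy3. Cdc7, the kinase that fires origins, had -0.11, -0.059 and -0.026, and Gins1, a subunit of the replicative helicase, had -0.041, -0.10 and -0.033. A second Cdc7 probe, above background on 5 mutant and 6 reference signals, stood at -0.0019. Both genes changed sign with the dye. With the mutant in Cy5 and in Cy3, Cdc7 stood at 0.043 and -0.17, and Gins1 at -0.13 and 0.0090. Whether these were dye effects, which cancel in the mean of a pool, was not tested. On the higher side, Kif11, a spindle motor, had 0.036, 0.023 and 0.048, and Nuf2, a kinetochore subunit, had 0.053, 0.026 and 0.031. Both were above 0 in every pool and in both dye orientations. Anln, which encodes the cytokinesis scaffold anillin, had 0.080, 0.093 and 0.0035, and -0.012 on average with median centring. Its second probe, above background on 5 mutant and 6 reference signals, had -0.0040, 0.013 and -0.017, with a mean of -0.0025. Cenpe, a kinetochore motor, had 0.064, 0.061 and 0.012, but -0.046 with the mutant in Cy5.

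**Figure D4:**
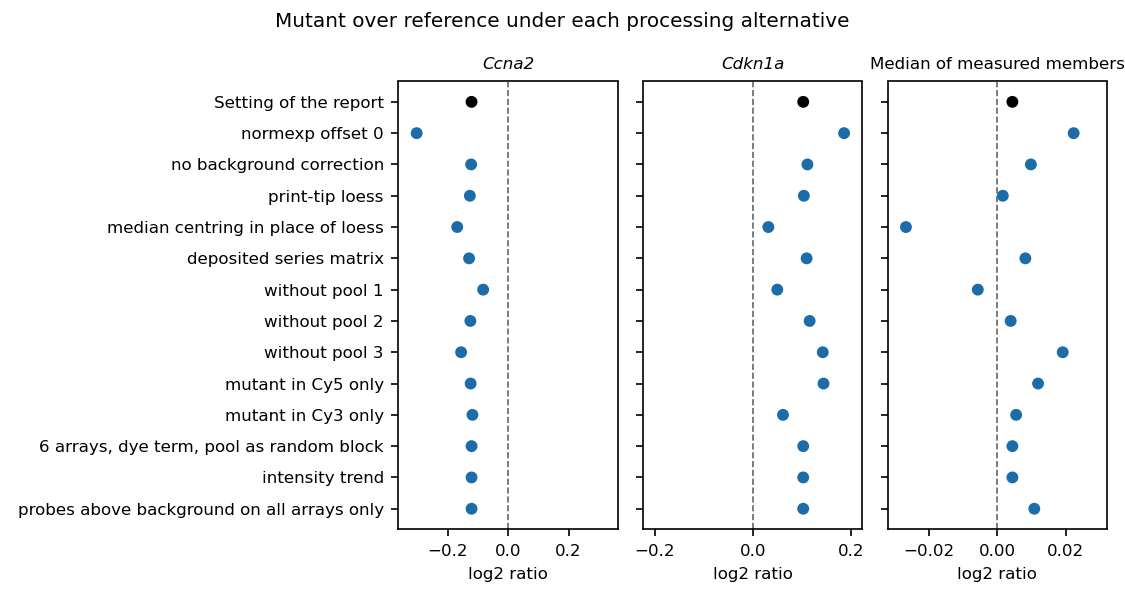
Log2 ratio of mutant over reference (x axis) of Ccna2, of Cdkn1a and of the median of the measured members under the setting of the report (black) and 13 alternatives (blue, rows). Ccna2 stays between -0.30 and -0.082 and Cdkn1a between 0.032 and 0.19, while the median of the members is at -0.027 with median centring and at -0.0057 without pool 1, and above 0 in the other rows.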

How the data were processed

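Each array gave an intensity per spot in Cy5 and Cy3. Per the deposited protocol text, an Agilent scanner and the ImaGene software gave the spot values, and the authors' normalized intensity values were made with print-tip loess without background subtraction. The deposited series matrix holds log2 ratios that equalled those values turned to mutant over reference (largest difference 5e-06, column medians -0.0022 to 0.002), which tied its rows to probes.

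Computation started from the scanner intensities with limma 3.58.1 in R 4.3.3: normexp background correction with an offset of 50, global loess (span 0.3) with 3223 control spots at weight 0, ratios turned to mutant over reference, then the 2 arrays of a pool averaged and tested against 0 by lmFit and eBayes (residual degrees of freedom 2, prior 2.74). P-values were adjusted by Benjamini-Hochberg over 31769 probes, with 0.05 as the threshold. Arrays of a pool share both RNAs, so the pool was the replicate. Normalized signals are channel values after loess and Aquantile scaling, and they include the offset of 50. Symbols came from the platform table and were updated through RefSeq (GRCm38.p6), with 2865 replaced through a synonym. Counts used 1 probe per gene, the brightest. Scanner flags were not used here. The turning of ratios, the averaging of pools and the fit were tested on simulated ratios. Background correction, loess, Aquantile scaling and the background rule were not. All measured members are named, except that those never above background have no values. Of the further cell cycle list at most 8 genes with an unadjusted p under 0.05 are named. The members and lists were chosen with earlier results of these data known. Alternatives changed the offset, background correction, normalization, dye orientation, model, filter and probe rule, used the deposited ratios, or left out 1 pool.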

Additional observations from a re-analysis of the deposited data

Results flagged for a closer look

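On 1 array the Cy3 channel was dimmer than on the others. Its median Cy3 signal was 46.2 (pool 3, mutant in Cy5), and the next lowest array had 49.1 (pool 1, mutant in Cy3). Cy3 held the mutant on 3 of the 6 arrays and the reference on the other 3, so the comparison is of a dye and not of a genotype. The gap, 0.69 of the range, exceeds the 95% critical value of Dixon's test. Of 7 such measures tried, this was the only one past it, and about 1 group in 20 passes by chance.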

How the results depend on the processing

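No member passed after adjustment over all probes except Ccna2 without pool 3, so leaving out 1 pool gave 0 to 1 members and 0 to 1543 probes (the lone call and all 1543 probes without pool 3, where 18.8% of all genes had an unadjusted p under 0.05). Over all probes, 312 passed when only Cy5-labelled mutant arrays were used, 430 with only Cy3-labelled ones, 18 with all 6 arrays fitted with a dye effect and pools as random blocks, and 11 with an intensity trend, none of them members. The number of members at an unadjusted p under 0.05 was 2, and 0 to 10 when 1 pool was left out (2.84% to 18.8% of genes). It was 1 with an offset of 0, with print-tip loess and with dim probes left out (4.67%, 6.11% and 5.63% of genes). It was 4 without background correction and with the deposited ratios (6.12% and 6% of genes). The mutant in Cy3 alone also gave 4, but there 23.5% of genes reached that level. It was 10 with the mutant in Cy5 alone, where 24.2% of genes reached that level, and 6, all lower, with median centring, where 19% did. The members' median was 0.0044, and -0.0267 with median centring, where that of all genes was -0.0059. Ccna2 and Cdkn1a kept their sign under all 13 alternatives, but had an unadjusted p under 0.05 in 10 and in 6 of them. Dim spots and the offset limit what can be seen, as 18 of the 42 members were not above background on all arrays. The cause of these differences was not tested. Mutant and reference were compared on the same array, but with 1 reference RNA the spread between wild-type samples could not be measured.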
